A study of Mus musculus with 42 samples.

Results

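The 32 genes described here mark the maturation of astrocytes: Aqp4, Mlc1, Hepacam, Slc4a4, Atp1b2 and Slc14a1 encode membrane proteins that handle water, ions and solutes; Gja1 and Gjb6 encode gap junction connexins; Aldoc, Aldh1l1, Glul, Acsbg1, Ppp1r3c, Cbs, Dio2 and Pla2g7 encode metabolic enzymes or their regulators; Apoe, Clu, Cst3, Sparcl1, Bcan, Htra1 and Chrdl1 encode secreted and matrix proteins; Fgfr3, Ntsr2, Gpr37l1, Ednrb and F3 encode receptors; and S100b, Mt3, Ndrg2 and Fam107a encode ion-binding and other intracellular proteins. They were chosen by name, and each was read from its probe set with the highest mean over all arrays. All 32 were on the array, out of 18193 genes with a probe set of their own.

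Astrocytes are the glial cells that buffer water and potassium, clear glutamate, feed lipid and lactate to neurons and secrete proteins that shape synapses. In rodent forebrain they arise from radial glia around birth, after most neurons have formed, and take up their mature gene programme over the following weeks.

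The 42 arrays hold total RNA (100 ng each) from C57BL/6 mice that lack Fmr1 (KO), the gene of fragile X syndrome, and from wild-type mice (WT). Embryos at 17 to 18 days post conception gave hippocampal and cortical tissue, used directly, and primary hippocampal and cortical cultures, matured for 14 days in vitro. The groups were hippocampal culture KO and WT (n = 5 each), hippocampal tissue KO and WT (n = 6 each), cortical culture KO and WT (n = 5 each) and cortical tissue KO and WT (n = 5 each), none of them treated with a drug. Every sample was a pool of littermate embryos with a mouse ID, which is read here as its litter though the labels do not call it that. Of these IDs, 5 KO and 5 WT recur in all 4 systems, 4237 (KO) and 3104 (WT) occur in hippocampal tissue alone, and each belongs to 1 genotype. The cultures were prepared as neuron cultures in Neurobasal medium with B27, and by the study's methods a minority of their cells were glia when harvested. Culture and tissue also differ in the time since dissection. In such bulk RNA, fewer cells of a type and less RNA per cell cannot be told apart.

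Values are log2 signals, on which a difference of 1 is a 2-fold change. Probe sets of olfactory receptor, vomeronasal receptor and keratin-associated protein genes, taken here as mostly unused in brain, set a background level of 5.16. Array medians lay between 5.40 and 5.56, and arrays of 1 group correlated at 0.977 to 0.997. Fmr1 signal was lower in KO than in WT in all 4 systems, by 0.90 to 0.99 on the log2 scale, with no overlap between arrays. Of 24 other astrocyte genes measured, such as Gfap and Slc1a2, 18 were above background in each kind of culture. In hippocampal tissue 17 were, and in cortical tissue 13. By the mean over all arrays 65.6% of all genes were above it, so these counts are a weak check of the label.

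Both kinds of culture carried far more of this programme than the tissue they came from. Averaged over the 32 genes, the log2 signal was 8.90 ± 0.15 in hippocampal cultures (SD, n = 10) and 7.61 ± 0.15 in hippocampal tissue (SD, n = 12). In cortical cultures the average was 8.97 ± 0.22, against 6.96 ± 0.10 in cortical tissue (SD, n = 10 each). The lowest culture array, at 8.54, lay above the highest tissue array, at 7.88. The 2 cultures thus sat at similar levels, and the tissues were apart.

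**Figure D1:**
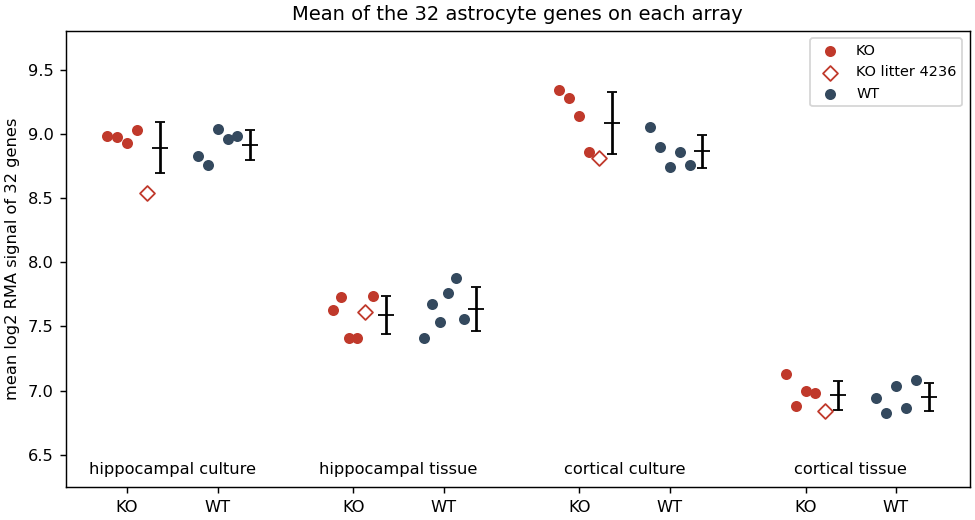
Mean log2 signal of the 32 genes on each of the 42 arrays (points), by system and genotype, with the mean ± SD of each group beside its points. The open diamonds are KO litter 4236, which was the lowest KO array in both cultures (8.54 in hippocampal and 8.81 in cortical culture) and in cortical tissue (6.84). All culture arrays lie above all tissue arrays.

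Tested one by one across all probe sets (limma, Benjamini-Hochberg adjusted p under 0.05), 24 of the 32 genes rose and 4 fell in hippocampal cultures relative to hippocampal tissue. Of all genes, 35.9% rose and 36.2% fell in that comparison (72.1% together), so being called higher is common in itself. The size of the change is less common: 18 of the 32 rose at least 2-fold, against 8.4% of all genes, and the median difference was 1.05, against 0.02 over all genes. In cortical cultures 29 of the 32 rose and 1 fell relative to cortical tissue, where 35.3% of all genes rose and 35.9% fell (71.2% together). There, 25 rose at least 2-fold, against 8.24% of all genes, and 1, Slc14a1, fell at least 2-fold, against 9.87%. The median difference was 1.86, against 0.01. Arrays of culture and tissue did not overlap for 21 of the genes in hippocampus (37.5% of all genes) and for 26 in cortex (37.4%). For Slc14a1 and Gjb6 both sides were below the background level, so their calls (Slc14a1 higher in hippocampal and lower in cortical culture, Gjb6 lower in hippocampal culture) carry no level of these transcripts, and no fold is given.

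**Figure D2:**
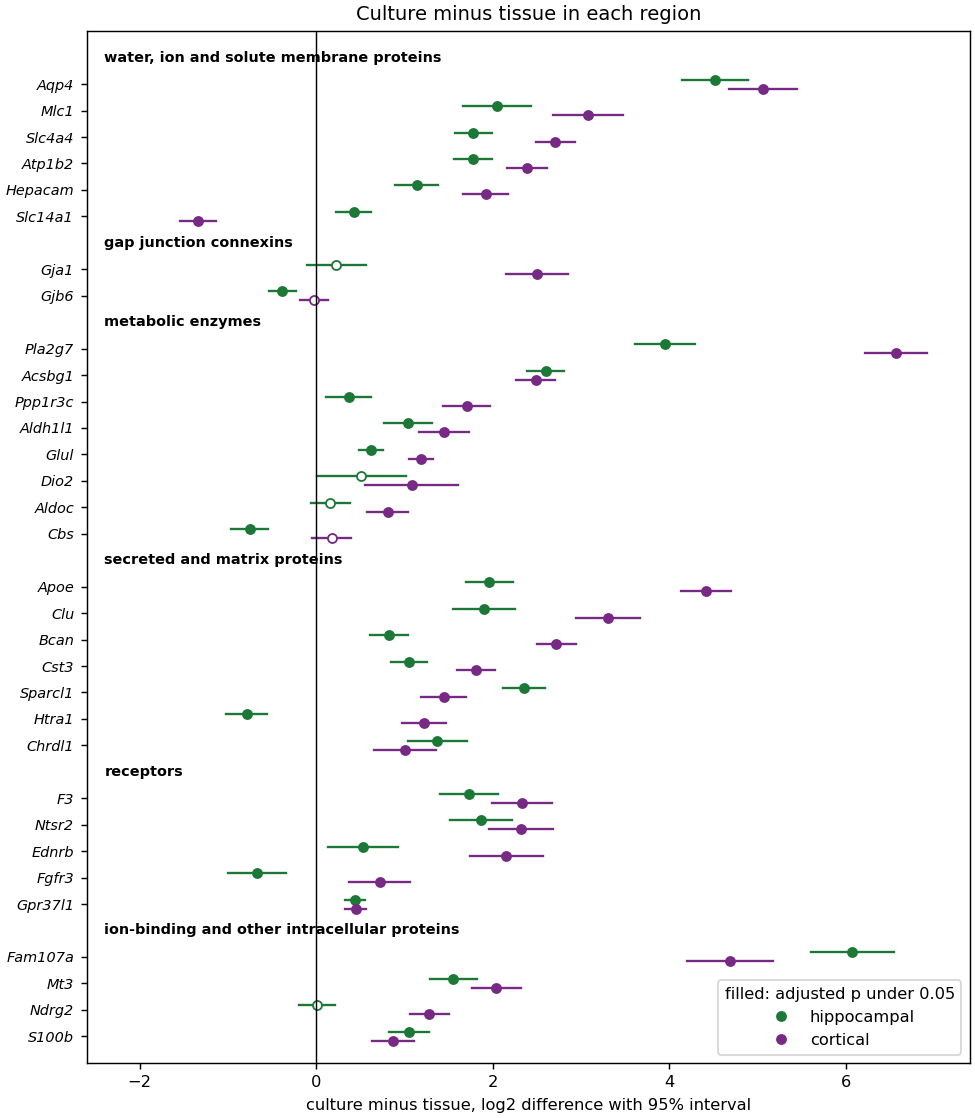
Culture minus tissue on the log2 scale for each gene (point) with its 95% interval from limma, hippocampal above cortical, by role; filled points passed an adjusted p of 0.05. Most points lie right of 0, Pla2g7 and Fam107a farthest (6.57 in cortical and 6.07 in hippocampal cultures), and most cortical points lie to the right of their hippocampal partner.

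By measured difference, with 1 probe set a gene, Pla2g7 came first of all genes in cortical cultures and Fam107a in hippocampal cultures. Pla2g7 encodes a secreted acetylhydrolase that inactivates platelet-activating factor. Its log2 signal in cortical cultures was 11.30 at the lowest, 12.14 at the median and 12.77 at the highest array, against 4.90, 5.45 and 6.20 in cortical tissue. In hippocampal cultures it was 10.99, 11.84 and 12.37, against 6.80, 7.97 and 8.46 in hippocampal tissue. No culture array overlapped a tissue array in either region. The difference was 6.57 ± 0.17 in cortex (SE, 94.9-fold, adjusted p = 2.5e-28) and 3.94 ± 0.17 in hippocampus (15.4-fold, adjusted p = 2.0e-22).

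Fam107a encodes an actin-associated protein that is abundant in radial glia and astrocytes. Its log2 signal in hippocampal cultures was 10.53 at the lowest, 11.36 at the median and 12.02 at the highest array, against 4.60, 4.94 and 6.66 in hippocampal tissue. In cortical cultures it was 7.80, 8.87 and 10.34, against 3.88, 4.23 and 4.59 in cortical tissue. The cortical tissue values were all below the background level, as were 8 of the 12 in hippocampal tissue, whose mean of 5.22 lay next to it. The measured difference of 6.07 ± 0.23 in hippocampus (SE, adjusted p = 8.2e-24) therefore rests on a tissue signal that was mostly not above background. In cortex the rise was at least 13.5-fold against the background level (measured difference 4.69 ± 0.24, adjusted p = 1.2e-19). With the mean of its probe sets the differences were 3.95 and 2.47.

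Because these 2 genes led the comparison, the bases before their starts are shown (RefSeq, GRCm38.p6), read in the direction of transcription. The Pla2g7 window is chr17:43568201-43568450 on the plus strand, and the capitals mark a match to the STAT site TTCNNNGAA. The Fam107a window is chr14:8309778-8310027 on the minus strand, before 1 of 3 annotated starts, and the capitals mark a match to the short NFI site TTGGCA. STAT and NFI proteins are regulators of astrocyte genes in mouse, which is why these motifs were searched.
Pla2g7: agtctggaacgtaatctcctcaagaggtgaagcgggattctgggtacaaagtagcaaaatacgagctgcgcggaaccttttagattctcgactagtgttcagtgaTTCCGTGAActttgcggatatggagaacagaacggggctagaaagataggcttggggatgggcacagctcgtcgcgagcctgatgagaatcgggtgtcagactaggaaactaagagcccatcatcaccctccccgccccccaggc
Fam107a: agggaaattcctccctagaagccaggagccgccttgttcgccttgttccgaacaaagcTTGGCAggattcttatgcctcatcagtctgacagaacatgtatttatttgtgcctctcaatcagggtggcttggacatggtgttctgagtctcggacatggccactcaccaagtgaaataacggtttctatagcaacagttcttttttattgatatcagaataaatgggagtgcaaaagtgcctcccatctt

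Promoter entries were at hand for 26 of the 32 genes, with 35 starts, and 250 bases before each were searched on both strands. The short NFI site was present before 6 of the 35 starts (17.1%), against 12.3% of 32851 promoters of the genome, in Aldoc, Apoe, Fam107a, Hepacam and S100b. Neighbouring Fam107a starts share the same site (first base at -192 and -190), so it is counted more than once among the 6. The STAT site was present before 4 starts (11.4%, against 7.02%), in Acsbg1, Aldoc, Ntsr2 and Pla2g7. Neither the full NFI palindrome, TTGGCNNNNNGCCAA, which can overlap the short site and is in 0.0365% of promoters, nor the SOX core AACAAT, in 9.42%, matched any of the 35. A match describes the letters of the window and no more.

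Among the membrane proteins for water, ions and solutes, 5 of 6 rose in both regions, each of them at least 2-fold. Aqp4 is the water channel of astrocyte endfeet. Its log2 signal was 8.17 at the lowest, 8.95 at the median and 9.64 at the highest array in hippocampal cultures, against 3.67, 4.36 and 5.31 in hippocampal tissue, and 8.52, 9.43 and 10.25 in cortical cultures, against 4.01, 4.32 and 4.76 in cortical tissue. All but 1 of these tissue arrays were below background, so its rise was at least 13.3-fold in hippocampal and at least 18.8-fold in cortical cultures (adjusted p = 4.5e-23 and 8.1e-24). With the mean of its probe sets the measured differences were 2.94 and 3.28, against 4.52 and 5.06 with the brightest. Mlc1, which sits with Hepacam (GlialCAM) in perivascular astrocyte membranes, rose by 2.05 in hippocampal and 3.08 in cortical cultures, and Hepacam by 1.14 and 1.92. The bicarbonate cotransporter gene Slc4a4 rose by 1.78 and 2.71, and Atp1b2, a sodium pump subunit, by 1.77 and 2.39 (1.17 and 1.40 with the mean of its probe sets).

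The 2 connexins behaved differently from each other. Gja1 encodes the main gap junction protein of astrocytes. Its log2 signal in hippocampal cultures was 10.25 at the lowest, 10.91 at the median and 11.62 at the highest array, against 10.24, 10.75 and 11.19 in hippocampal tissue. In cortical cultures it was 10.59, 11.26 and 12.02, against 8.12, 8.98 and 9.20 in cortical tissue. Hippocampal tissue was thus already within the range of the cultures, and cortical tissue was the only low system. The difference was 0.23 ± 0.17 in hippocampus (SE, 95% interval -0.11 to 0.56, adjusted p = 0.23) and 5.65-fold in cortex (SE 0.17 on the log2 scale, adjusted p = 8.2e-16). Gjb6, which encodes the second astrocyte connexin, had mean signals between 3.47 and 3.86 in the 4 systems, all below background.

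Of the 8 metabolic genes, 5 rose in hippocampal and 7 in cortical cultures. Acsbg1, an acyl-CoA synthetase, rose by 2.60 and 2.49 in hippocampal and cortical cultures, the first of these a rise of at least 5.55-fold from tissue at background. Aldh1l1, the folate enzyme used as a pan-astrocyte marker in mouse, rose by 1.04 and 1.45, and Glul, glutamine synthetase, by 0.62 and 1.19. Aldoc, the brain aldolase, had a bright probe set in all systems, with means of 11.76 in hippocampal cultures and 11.60 in hippocampal tissue (difference 0.16, not called) and of 11.55 in cortical cultures and 10.74 in cortical tissue (difference 0.81, called). Its other, dimmer probe set rose by 3.57 in both regions, and the mean of the pair by 1.87 in hippocampal and 2.19 in cortical cultures, so the missing call in hippocampus belongs to the bright probe set. Ppp1r3c, a glycogen-targeting phosphatase subunit, rose by 0.37 and 1.71. Dio2, the deiodinase that makes active thyroid hormone, rose in cortical cultures by 1.08, while its difference of 0.51 in hippocampal cultures missed the threshold (95% interval 0.01 to 1.01, adjusted p = 0.066). With litter as a replicate block the Dio2 difference was 0.65 and called (adjusted p = 0.010), and it was also called with quantile normalization, with either other use of its probe sets and without litter 4236, at adjusted p-values of 0.0019 to 0.047. Cbs, of the transsulfuration pathway, fell by 0.76 in hippocampal cultures and differed by 0.17 in cortical cultures (not called), where its other probe set rose by 0.46 and the mean of the pair by 0.31 (both called).

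All 7 secreted and matrix proteins rose in cortical cultures, and 6 of 7 rose in hippocampal cultures. Apoe, the main lipid carrier of astrocytes, had a log2 signal of 11.47 at the lowest, 11.77 at the median and 12.42 at the highest array in cortical cultures, against 7.06, 7.45 and 7.64 in cortical tissue. In hippocampal cultures it was 10.74, 11.21 and 11.71, against 8.69, 9.33 and 9.75 in hippocampal tissue. Neither region had an overlap, and the gap was wider in cortex, 4.41 ± 0.14 (SE, 21.3-fold), than in hippocampus, 1.96 ± 0.13 (3.89-fold). Clu, the chaperone clusterin, rose by 1.90 in hippocampal and 3.30 in cortical cultures, Bcan, the proteoglycan brevican, by 0.83 and 2.72, and Cst3, cystatin C, by 1.05 and 1.81. Sparcl1, hevin, which promotes excitatory synapse formation, rose more in hippocampal cultures (2.35) than in cortical cultures (1.44). Chrdl1, a BMP antagonist, was dim, with means of 6.09 and 5.43 in hippocampal and cortical cultures, at least 1.91-fold and 1.20-fold above their tissues, which were at background.

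Htra1, a secreted serine protease, moved in opposite directions. Its log2 signal in hippocampal cultures was 8.70 at the lowest, 9.24 at the median and 9.45 at the highest array, against 9.55, 9.98 and 10.51 in hippocampal tissue. In cortical cultures it was 8.57, 8.76 and 9.44, against 7.34, 7.58 and 8.13 in cortical tissue. Neither pair overlapped, and the 2 cultures lay between the 2 tissues. It fell by 0.79 on the log2 scale in hippocampal cultures (SE 0.12, adjusted p = 1.8e-07), and in cortical cultures the difference was 1.22 ± 0.12 (adjusted p = 2.3e-11).

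Receptors rose in 4 of 5 cases in hippocampal and in all 5 in cortical cultures. Ntsr2, a neurotensin receptor, rose by 1.87 in hippocampal and 2.32 in cortical cultures (at least 3.29-fold, as cortical tissue was at background), and F3, tissue factor, by 1.73 (at least 2.49-fold, as hippocampal tissue was at background) and 2.33. Ednrb, the endothelin B receptor, rose by 0.53 and 2.15, and Gpr37l1, a receptor of glia, by 0.44 in each. Fgfr3, a fibroblast growth factor receptor that is also used by progenitors, fell by 0.67 in hippocampal cultures and rose by 0.72 in cortical cultures. Among the intracellular proteins, the zinc-binding Mt3 rose by 1.55 and 2.04. S100b, a calcium-binding protein, had means of 5.58 and 5.41 in hippocampal and cortical cultures, just above background, and 4.53 and 4.54 in their tissues (a rise of at least 1.34-fold and 1.19-fold). Ndrg2, a protein of the N-myc downstream-regulated family, rose by 1.28 in cortical cultures and had a difference of 0.01 in hippocampal cultures (95% interval -0.20 to 0.22), and these 2 values differed in the test of the interaction.

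Other gene lists read from the same arrays did not all move this way. Of the 24 further astrocyte genes measured, 16 rose and 6 fell in hippocampal cultures, and 19 rose and 3 fell in cortical cultures, led in both by Slc39a12 (3.58 and 4.82) and Gstm1 (3.45 and 4.63). Gfap, the intermediate filament of astrocytes, rose by 2.90 in hippocampal cultures. Of 16 regulators of astrocyte formation, none rose and 15 fell in hippocampal cultures, including Hes5 (-3.32), Id3 (-1.91) and Id2 (-1.70). In cortical cultures 4 rose, among them Stat3 (1.96), and 11 fell, among them Id2 (-1.96). Most regulators were thus lower in the same cultures in which most of the 32 genes were higher.

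Markers of other cells also moved between culture and tissue. Of 16 radial glia genes, 3 rose and 12 fell in hippocampal cultures, and 7 rose and 6 fell in cortical cultures. All 12 cell cycle genes fell in both. Of 14 neuronal genes, 13 rose and 1 fell in hippocampal and 11 rose and 2 fell in cortical cultures. Of 11 microglial genes, 10 fell in each, and their mean log2 signal was 4.42 to 4.67 on the culture arrays, below background, against 5.65 to 6.75 on the tissue arrays. The neuronal mean was 10.50 to 11.21 in cultures, against 8.70 to 9.88 in tissue. Of 16 genes of reactive astrocytes, 7 rose and 5 fell in hippocampal and 10 rose and 2 fell in cortical cultures. The part of such shifts in cell make-up in the rise of the 32 genes was not tested.

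**Figure D3:**
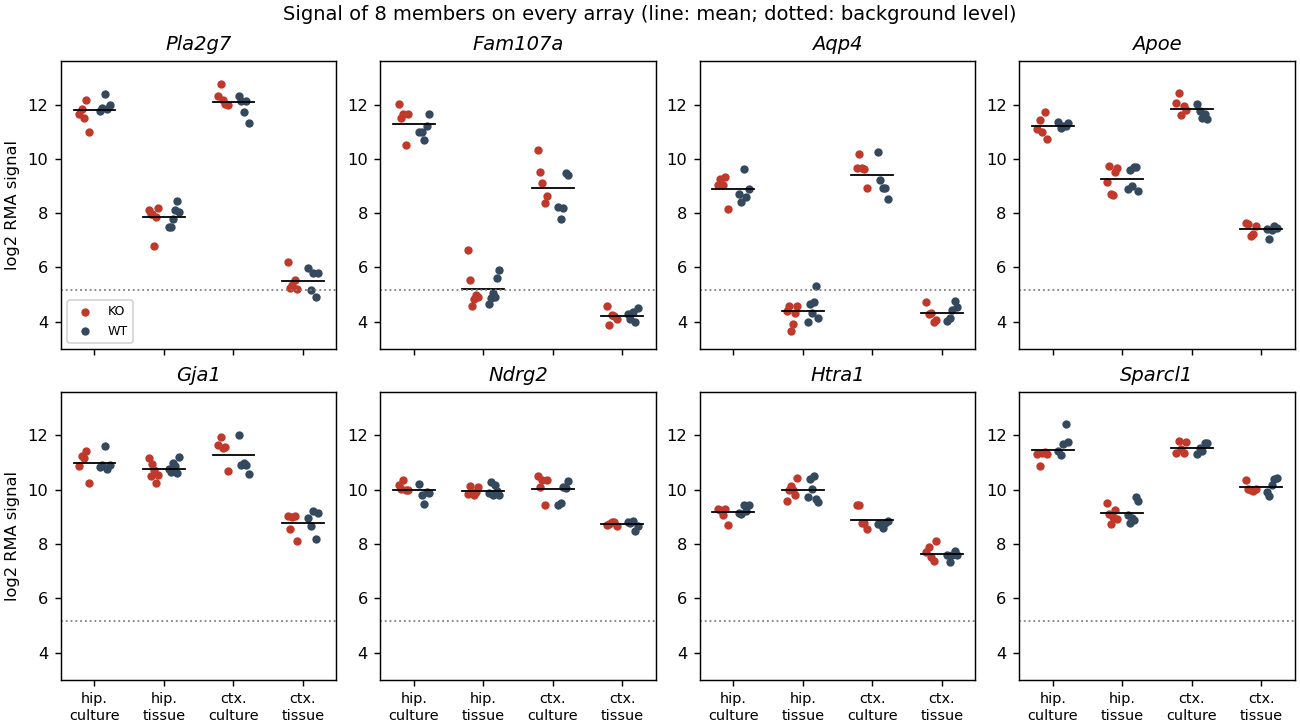
Log2 signal of 8 genes on every array in the 4 systems, KO left of WT, with the mean of each system (line) and the background level of 5.16 (dotted). Pla2g7, Fam107a, Aqp4 and Apoe are high in both cultures, Gja1 and Ndrg2 are low in cortical tissue alone, Htra1 is highest in hippocampal tissue and Sparcl1 is lowest there.

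The rise in culture was not equal in the 2 regions. The difference of the differences, tested for each gene as an interaction, was called for 22 of the 32, against 32% of all genes. It was lower in hippocampus for 19 of them (17.1% of all genes) and higher in hippocampus for 3 (14.9%): Sparcl1 (0.91), Fam107a (1.39) and Slc14a1. Slc14a1 was below background in all systems, and Fam107a in cortical and most hippocampal tissue arrays, so the size and direction of these 2 interactions depend on signals that were not above background. The same holds for Gjb6 among the 19. With litter as a replicate block F3 (-0.59) and Mt3 (-0.53) were called as well, F3 with hippocampal tissue at background. With the mean of probe sets Aldoc (-0.32) and Atp1b2 (-0.23) were not called. The strongest were Pla2g7, at -2.62 ± 0.24 (SE, adjusted p = 8.9e-11), Apoe, at -2.45 ± 0.19 (adjusted p = 1.6e-12), Gja1, at -2.27 ± 0.24 (adjusted p = 2.1e-09) and Htra1, at -2.01 ± 0.17 (adjusted p = 9.6e-12). Bcan (-1.89), Ednrb (-1.62), Clu (-1.40), Fgfr3 (-1.39), Ppp1r3c (-1.34) and Ndrg2 (-1.27) followed. For Acsbg1, with hippocampal tissue at background, the interaction was 0.11 (95% interval -0.19 to 0.42), and for Gpr37l1 it was -0.01, neither called.

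Set side by side, more of the genes differed between the regions in tissue than in culture. In tissue 21 of the 32 genes were higher in hippocampus than in cortex (19.7% of all genes) and 5 were lower (16.7%), with a median difference of 0.73, against -0.01 over all genes. Of the 32, 11 were higher and 1 was lower by at least 2-fold, against 2.53% and 1.36% of all genes. In culture 5 were higher in hippocampal cultures (14.7% of all genes) and 8 were lower (13.5%), where 28.2% of all genes were called, with a median of -0.05. The difference was at least 2-fold for 5 of them, against 2.48% of all genes. Arrays of the regions did not overlap for 19 genes in tissue (13.3% of all genes) and for 6 in culture (2.98%). For 24 of the 32 the difference was larger in size in tissue, a count not made over all genes. Of the 21 genes that were higher in hippocampal tissue, 15 were called in neither direction in culture. Most of all genes were not called there either, as 28.2% were.

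**Figure D4:**
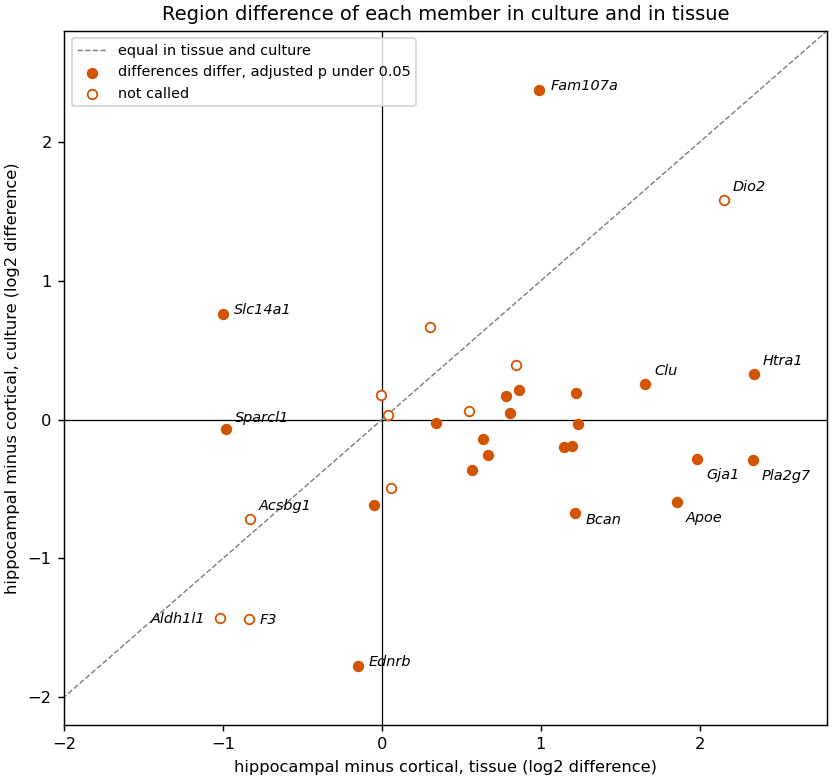
Hippocampal minus cortical difference (log2) of each of the 32 genes in tissue (horizontal) and in culture (vertical); filled points are genes whose 2 differences differed at an adjusted p under 0.05, and the dashed line marks equal differences. Most genes lie to the right of 0 and near 0 on the vertical axis, with Fam107a, Dio2, Aldh1l1, F3 and Ednrb away from it.

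The genes that differed most between the tissues were Htra1 (2.34), Pla2g7 (2.33), Dio2 (2.15), Gja1 (1.99), Apoe (1.86) and Clu (1.66), all higher in hippocampus without overlap between arrays. For Pla2g7, Gja1 and Clu the corresponding differences between cultures were -0.29, -0.29 and 0.25, none of them called, and for Ndrg2 it was -0.03 (95% interval -0.25 to 0.18). Smaller regional differences in tissue, all called and higher in hippocampus, were those of Ndrg2 (1.24), Mlc1 (1.22), Fgfr3 (1.20), Ppp1r3c (1.15), Aldoc (0.86), Ntsr2 (0.84), Cst3 (0.81), Atp1b2 (0.78), Cbs (0.67), Hepacam (0.64), Slc4a4 (0.57) and Mt3 (0.55). For Ntsr2 cortical tissue was at background, so its signal was at least 1.18-fold higher in hippocampal tissue. Sparcl1 was lower in hippocampal tissue (-0.98), and its cultures differed by -0.07 (not called). Glul (-0.05), Chrdl1 (0.30), Gpr37l1 (0.04), S100b (-0.01) and Aqp4 (0.06) were not called between the tissues, and Chrdl1, S100b and Aqp4 were at background in both. Between cultures, Slc4a4 (-0.36) and Glul (-0.62) were lower and Chrdl1 (0.66) and Htra1 (0.33) higher in hippocampal cultures. The Htra1 call was lost in 13 of 20 fits that left out 1 array and with quantile normalization (0.29).

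Apoe and Bcan turned round: they were higher in hippocampal than in cortical tissue, by 1.86 and 1.21, and lower in hippocampal than in cortical cultures, with differences of -0.60 and -0.68.

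A few genes kept a regional difference. Dio2 had a log2 signal of 8.68 at the lowest, 9.31 at the median and 10.80 at the highest array in hippocampal cultures, against 6.78, 7.96 and 8.32 in cortical cultures. In tissue it was 8.05, 8.98 and 9.71 in hippocampus, against 5.97, 6.76 and 7.32 in cortex. Dio2 arrays therefore did not overlap between regions in either preparation, and the differences were 1.59 ± 0.26 and 2.15 ± 0.25 (SE, adjusted p = 8.6e-06 and 4.8e-09), the second of them 1.36 with the mean of its probe sets. Aldh1l1 ran the other way in both, lower in hippocampal than in cortical cultures (-1.43) and tissue (-1.02), as did Acsbg1 (-0.72 and -0.83) and F3 (-1.43 and -0.84). Hippocampal tissue was at background for Acsbg1 and F3, so their signal there was at least 1.63-fold and 1.34-fold lower than in cortical tissue. Ednrb was lower in hippocampal than in cortical cultures, at -1.77 ± 0.20 (adjusted p = 9.0e-09), with a difference of -0.15 in tissue (95% interval -0.55 to 0.24). Fam107a was higher in hippocampus in both, by 2.38 in culture, without overlap, and by 0.99 in tissue (at least 1.04-fold, as cortex was at background).

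In tissue, markers of other cells differed between the regions with the 32 genes. In hippocampal relative to cortical tissue 12 of 16 radial glia genes were higher and 1 was lower, as were 13 and 1 of 16 regulators of astrocyte formation. Of microglial genes 10 of 11 were higher, of choroid plexus genes 9 of 10, of meningeal and fibroblast genes 10 of 10 and of cell cycle genes 8 of 12, with none lower. Of 14 neuronal genes 9 were lower and none higher. The mean log2 signal of the choroid plexus list was 5.85 to 7.52 on hippocampal tissue arrays, against 4.22 to 5.48 on cortical tissue arrays, and that of the radial glia list was 10.19 to 10.57, against 9.26 to 9.60. Apoe, Clu and several others of the 32 genes are also used by such cells, and the part of these lists in the regional difference was not tested.

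Loss of Fmr1 was the study's main question, and few of the 32 genes were called between KO and WT. Calls here use an unadjusted p under 0.05, the threshold of the study's methods. In hippocampal cultures 1 gene was lower in KO (2.67% of all genes) and none higher (6.87%), where 9.54% of all genes were called. In cortical cultures 3 were higher (6.17%) and none lower (4.05%), where 10.2% of all genes were called. In hippocampal tissue 1 was lower (0.945%) and none higher (0.594%), where 1.54% of all genes were called, and in cortical tissue none was higher (1.23%) or lower (0.434%), where 1.66% were called. The 1 gene of hippocampal tissue is Gjb6, which was below background. Arrays of KO and WT overlapped for all 32 genes in every system, while they did not for 0.907% of all genes in hippocampal cultures, 0.654% in cortical cultures, 0.126% in hippocampal tissue and 0.456% in cortical tissue. With Benjamini-Hochberg adjustment no gene of the 32 passed 0.05 in any system, against 0.0165% of all genes in hippocampal tissue and 0.0055% in each of the other 3 systems. The 95% intervals of the differences reached 0.37 to either side for the median gene in each culture and in cortical tissue and 0.34 in hippocampal tissue.

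**Figure D5:**
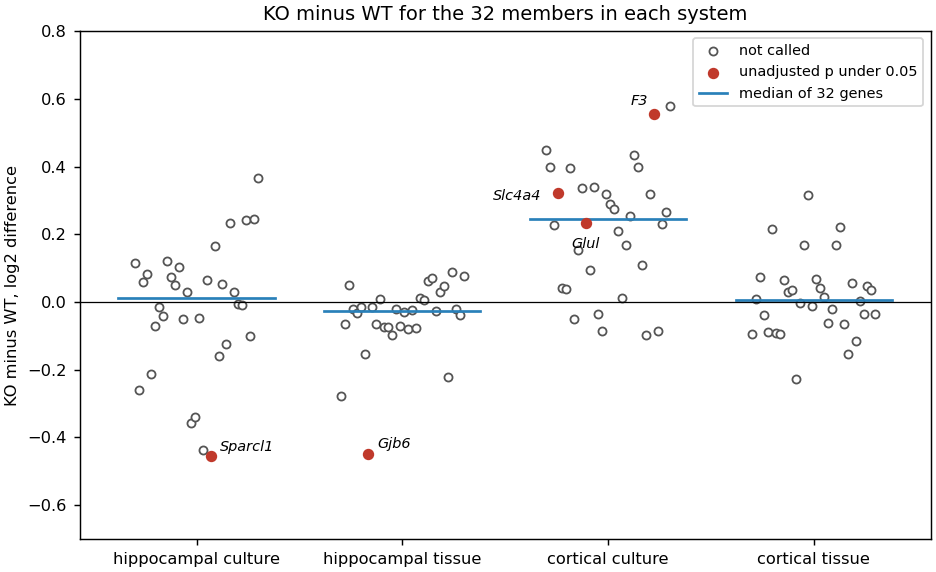
KO minus WT difference (log2) of each of the 32 genes (points, in a fixed gene order from left to right) in the 4 systems, with the median (line) and genes at an unadjusted p under 0.05 filled and named. The points of cortical culture lie mostly above 0 (median 0.24), and the medians of the other 3 systems lie between -0.03 and 0.01.

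Sparcl1 was the gene called in hippocampal cultures. Its log2 signal was 11.32, 10.87, 11.36, 11.38 and 11.30 on the 5 KO arrays, against 11.42, 11.28, 11.68, 12.40 and 11.74 on the 5 WT arrays. The groups overlapped by 1 WT array, and the lowest value was that of KO litter 2038 and the highest that of WT litter 3569. The difference was -0.46 ± 0.18 (SE, adjusted p = 0.44 by limma), and the call was lost without KO litter 2038 or WT litter 3569, while 3 genes were called without KO litter 2620 or WT litter 2236. S100b was not called with its brightest probe set. Its other probe set was higher in KO by 0.55 (unadjusted p = 0.0040, adjusted p = 0.35 by limma), and the mean of the pair by 0.39. With the probe set of smallest p for each gene, 2 genes were higher and 3 lower.

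In cortical cultures the calls were Slc4a4, Glul and F3. F3 had a log2 signal of 8.47, 8.52, 8.40, 8.27 and 7.34 on the KO arrays, against 8.73, 7.26, 7.52, 7.44 and 7.29 on the WT arrays. Thus 4 of 5 KO arrays were high and 4 of 5 WT arrays low, while litter 4236 was low among the KO arrays and litter 2236 was the highest of all 10. The difference was 0.55 ± 0.24 (SE, adjusted p = 0.46 by limma). Slc4a4 had 10.22, 10.36, 10.17, 9.88 and 9.70 in KO, against 10.39, 9.68, 9.46, 9.76 and 9.44 in WT (0.32 ± 0.15, adjusted p = 0.50 by limma). Glul had 11.83, 11.60, 11.60, 11.03 and 11.39 in KO, against 11.16, 11.13, 11.29, 11.39 and 11.31 in WT (0.23 ± 0.10, adjusted p = 0.45 by limma). Both overlapped, and each of the 3 calls was lost in 5 to 7 of the 10 fits that left out 1 array of these groups.

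By sign alone, called or not, 27 of the 32 differences in cortical cultures were above 0 (84.4%), against 52.9% of all genes, with a median of 0.24, against 0.01. In hippocampal cultures 16 of 32 were above 0 (54.7% of all genes), in hippocampal tissue 10 (47.9%) and in cortical tissue 17 (57.7%). Other lists stood above 0 in the KO cortical cultures too: 14 of 16 radial glia genes (median 0.26), all 12 cell cycle genes (0.31), 15 of 16 regulators of astrocyte formation (0.24) and 16 of 24 other astrocyte genes (0.13), while 6 of 14 neuronal genes did (-0.05). In the KO hippocampal cultures 4 of 16 radial glia genes (-0.18) and none of the 12 cell cycle genes (-0.25) were above 0. The part of these lists in the cortical shift was not tested. The cortical figure also moved with single litters. On the KO arrays of cortical culture, the average over the 32 genes was 9.34, 9.28, 9.14, 8.86 and 8.81, against 9.05, 8.90, 8.74, 8.86 and 8.76 on the WT arrays. KO litter 4236, the lowest KO array, was also the lowest in hippocampal cultures, with 8.54 against 8.93 to 9.03 for the other KO litters, and gave the lowest KO value for 25 of the 32 genes there and for 16 in cortical cultures. The same litter was the lowest KO array of cortical tissue (6.84) but not of hippocampal tissue (7.61). It was also lowest of its group in the radial glia list (8.75 in hippocampal and 9.10 in cortical culture) and highest in the neuronal list (11.16 and 10.99). WT litter 2236 was the highest WT array of the cortical cultures, and lowest of them in the neuronal list (10.50).

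With litter 4236 left out of all systems, a setting added after the data were seen, 11 of the 32 genes were higher in KO cortical cultures and none lower, when 16.9% of all genes were called. The additional genes were Aqp4, Mlc1, Gja1, Ppp1r3c, Clu, Cst3, Htra1 and Chrdl1, and none had an adjusted p below 0.16. Within cortical cultures, leaving out KO litter 2037, 2038 or 2221 ended every call. Without WT litter 2643 the calls of Slc4a4, Glul and F3 were lost too, and the 1 call in that fit was of another gene. Leaving out KO litter 2620, KO litter 4236 or WT litter 2236 from that group gave 8, 10 and 9 calls. The share of all genes called was not computed for the fits without a single array. The KO effect in culture differed from that in tissue, tested as an interaction, for none of the 32 genes in either region (adjusted p of 0.96 or above by limma). The same was true of all genes, with 0% called in either region. At an unadjusted p under 0.05 the count was 1 in hippocampus, Gjb6, which was below background, and 0 in cortex. That count was not made over all genes.

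In hippocampal tissue Gjb6 was lower in KO, at 3.88, 3.29, 3.71, 3.71, 3.42 and 3.79, against 3.95, 4.27, 3.64, 4.25, 4.51 and 3.87 in WT (-0.45 ± 0.10, adjusted p = 0.36 by limma). All 12 values were under the background level of 5.16. The remaining genes differed by -0.28 to 0.09 in hippocampal tissue and by -0.23 to 0.32 in cortical tissue.

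The median within-group SD was 0.31 in cultures and 0.27 in tissue, and 19 of the 32 genes varied more in culture. Fam107a (0.64 in culture and 0.48 in tissue), Mlc1 (0.62 and 0.24) and Ednrb (0.62 and 0.30) varied most between culture litters.

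Over the 4 systems, 12 genes were highest in hippocampal cultures, 15 in cortical cultures, 4 in hippocampal tissue and 1 in cortical tissue, and 22 were lowest in cortical tissue. The 1 in cortical tissue was Slc14a1, and Gjb6 was among the 4 in hippocampal tissue, both below background in all systems. Such counts were not made over all genes.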

How the data were processed

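The authors hybridised each RNA sample to 1 Affymetrix GeneChip mouse expression array and deposited RMA values, background-corrected, quantile-normalized and summarised per probe set on the log2 scale. Which arrays were normalized together is not given in the sources used here. No further scaling was applied to the deposited log2 values. Of 45101 probe sets, 64 controls were left out, and 45037 were fitted with limma 3.58.1 (R 4.3.3) on 8 group means, with eBayes and Benjamini-Hochberg adjustment over all probe sets. Calls used an adjusted p under 0.05, and for KO minus WT, as in the study's methods, an unadjusted p under 0.05. A gene was read from its brightest probe set, among 34945 that name 1 gene (932 name several, 9160 none). The background level is the 95th percentile over 123 probe sets of olfactory receptor, vomeronasal receptor and keratin-associated protein genes. Against a side whose mean is below it, a fold is a bound: the brighter mean over the mean, on the dim side, of each array's own value or that level, whichever is higher. All 32 genes were to be named, and from each further list at most 4, by size of change. The genes and lists were chosen with earlier results of these data known. P-values measure the spread between samples with different mouse IDs, each a pool of littermates per the labels. The fit used 1 spread per probe set, common to all 8 groups, although the median within-group SD was 0.31 in cultures and 0.27 in tissue. The mouse ID was read as the litter. Arrays of 1 ID deviated together between cultures (median r 0.28) and between tissues (0.36), and less between culture and tissue (0.02 to 0.07). The fit was tested on simulated data. Arrays carry no read depth, so their number limits the precision. Promoters were read with Python 3.11.15 and pandas 2.3.3 and figures drawn with matplotlib 3.10.9.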

Additional observations from a re-analysis of the deposited data

Results flagged for a closer look

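Within groups, 21 values stood apart from the other arrays by Dixon's criterion, of 264 sets of arrays examined, and chance gives about 1 in 20. In hippocampal KO cultures these were low values of Aqp4 (8.17) and of the mean of the 32 genes (8.54), both in litter 4236, a low Sparcl1 (10.87) and a high Mt3 (10.06). In cortical KO cultures they were a low F3 (7.34), in litter 4236, and Atp1b2 at 10.17. In hippocampal WT cultures Fgfr3 was low (8.68) and Gja1 high (11.62). Of the cortical WT cultures, litter 2236 alone gave high values of Aldh1l1 (9.45), F3 (8.73) and Gja1 (12.02) and a low Aldoc (10.91). In hippocampal tissue Pla2g7 was low on 1 KO array (6.80) and Fgfr3 on 1 WT array (8.93). In cortical KO tissue Clu (9.10) and Sparcl1 (10.37) were high in litter 2037. In cortical WT tissue Aldoc (10.25), Apoe (7.06), Fgfr3 (7.09) and Hepacam (5.79) were low on 1 array each and Ntsr2 (5.68) was high.

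The culture minus tissue difference itself differed between hippocampus and cortex, by the interaction in limma at an adjusted p under 0.05, for 22 of the 32 genes. The hippocampal difference was the smaller or more negative by -2.62 for Pla2g7, -2.45 for Apoe, -2.27 for Gja1, -2.01 for Htra1, -1.89 for Bcan, -1.62 for Ednrb, -1.40 for Clu, -1.39 for Fgfr3, -1.34 for Ppp1r3c, -1.27 for Ndrg2 and -1.03 for Mlc1. It was so by -0.93 for Slc4a4, -0.93 for Cbs, -0.78 for Hepacam, -0.76 for Cst3, -0.65 for Aldoc, -0.62 for Atp1b2, -0.57 for Glul and -0.36 for Gjb6. It was the larger by 1.76 for Slc14a1, 1.39 for Fam107a and 0.91 for Sparcl1. Slc14a1 and Gjb6 were below the background level in all 4 systems. Fam107a was so in cortical tissue and on most hippocampal tissue arrays.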

How the results depend on the processing

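Of 124 calls, 124 kept direction and call with arrays centred on their medians, 124 with trend and robust eBayes, 122 with quantile normalization, 120 with the mean of a gene's probe sets and 121 with the groups' own arrays alone, and no result reversed. Asking for at least 2-fold left 18 genes in hippocampal culture minus tissue (28 otherwise) and 13 in the interaction (22), where it left 5.07% of all genes. It left 5 in the regional difference of cultures (13) and 12 in that of tissues (26). Adjusted p-values left 0 in KO minus WT in hippocampal cultures, cortical cultures and hippocampal tissue. In cortical cultures (3 called) the count was 11 without litter 4236 in any system, 1 with the mean of probe sets, 1 with own arrays alone and 6 with the probe set of smallest p. With own arrays alone Slc4a4, Glul and F3 were all lost, and the 1 call was Fgfr3 (0.40). With the mean of probe sets F3 was kept. In hippocampal cultures (1 called) the count was 2 with the mean and 5 with the smallest p. In cortical tissue (0 called) it was 3 with own arrays alone and 1 with the smallest p, and in hippocampal tissue (1 called) 0 among probe sets above background. Leaving out 1 array at a time gave 28 to 29 and 30 to 31 genes for culture minus tissue in hippocampus and cortex, 22 to 24 for the interaction, 12 to 14 and 26 for the regions in culture and tissue, and, for KO minus WT, 0 to 3 in hippocampal cultures, 0 to 10 in cortical cultures, 1 in hippocampal tissue and 0 to 1 in cortical tissue (1 without KO litter 2037 or WT litter 2643). Htra1, called between the cultures, lost that call in 13 of 20 such fits and with quantile normalization. With litter as a replicate block, 119 of 119 calls between preparations or regions were kept, and the genes added were Dio2 in hippocampal culture minus tissue (29 called) and F3 and Mt3 in the interaction (24 called). As KO and WT share no litter, litter entered those comparisons as a random block (consensus correlation 0.068), which kept 5 of 5 calls. The cause of these moves was not tested. Signals below the background level bound what can be said of Slc14a1 and Gjb6.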

Other observations

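Of 20 gliogenic ligands and receptors, 5 were higher and 6 lower in hippocampal cultures than in hippocampal tissue, and 12 were higher and 4 lower in cortical cultures than in cortical tissue. Il6st, the shared receptor subunit gp130 of the cytokines that drive astrocyte formation, rose by 1.34 and 1.79, and Jag1, a Notch ligand, had differences of -1.28 and -1.36. Among reactive astrocyte genes the hyaluronan receptor gene Cd44 rose by 2.59 and 2.75, and Ptx3, a secreted pattern recognition protein, had differences of -2.64 and -3.24. Of 13 oligodendrocyte lineage genes, 9 were lower and none higher in hippocampal than in cortical cultures.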
